A study of Canis lupus familiaris with 4 samples.

Results

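The pyruvate dehydrogenase complex stands at the gate between glycolysis and the tricarboxylic acid cycle, and 10 genes of that gate are described here in dog MDCKII cells, an established epithelial line from kidney. They encode the 4 pyruvate dehydrogenase kinases (PDK1, PDK2, PDK3 and PDK4), the phosphatase PDP1, the complex subunits PDHA1, PDHB and DLAT, and the mitochondrial pyruvate carrier subunits MPC1 and MPC2. All probe sets whose single platform gene symbol was one of these names were taken, which gave 10 of the 15115 genes and 23 of the 42924 probe sets on the array. Of these, 17 reached the floor on low values, an intensity of 46.3 (the median of all values) on at least 1 array, and they covered 9 of the 10 genes. PDP1 is the gene without such a probe set.

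As background, pyruvate enters mitochondria through the carrier, a heteromer of MPC1 and MPC2, and the complex then converts it to acetyl-CoA. The kinases phosphorylate the alpha subunit of the first enzyme, PDHA1, and so switch the complex off, while PDP1 and its relatives remove the phosphate and switch it on. In many mammalian cells PDK1 is a well known target of the hypoxia-inducible factor HIF-1, whose oxygen-regulated subunit is HIF1A, and PDK4 is known as a gene of the fasting response.

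Each of the 4 groups had 1 array. Cells labelled as HIF1A wild type (WT) or as HIF1A knockdown (KD) spent 24 h in normoxia and then another 24 h in normoxia or in hypoxia, which gave the groups WT normoxia, WT hypoxia, KD normoxia and KD hypoxia. All 4 groups share the cell line, the first 24 h in normoxia and the labelling from 100 ng of total RNA. The sources used here do not give the oxygen level, the method of the knockdown or whether the cells are 1 clone. With 1 array per group, no difference between a pair of arrays can be set against replicates, and 4 arrays give little precision.

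HIF1A mRNA did not follow the knockdown label. Its brightest probe set read 3651 in WT normoxia, 3435 in KD normoxia, 675 in WT hypoxia and 625 in KD hypoxia, so it was low on both arrays labelled hypoxia and nearly equal between the arrays labelled WT and KD. Every direction below is therefore that of the array labels, and whether the arrays labelled KD normoxia and WT hypoxia were exchanged was not tested. Among the kidney epithelial markers, 9 of 11 measured genes reached the floor on all 4 arrays, with a summed intensity from 36732 to 38339, while CDH1 and PAX8 were below it on every array. Of the fibroblast markers, 1 of 8 reached the floor on all 4 arrays (summed intensity 143 to 170). The counts were 2 of 6 endothelial markers (224 to 324), 2 of 7 leukocyte markers (601 to 697) and 1 of 4 muscle markers (135 to 172). The leukocyte and muscle sums were highest in KD normoxia, and their part in the results was not tested.

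**Figure D1:**
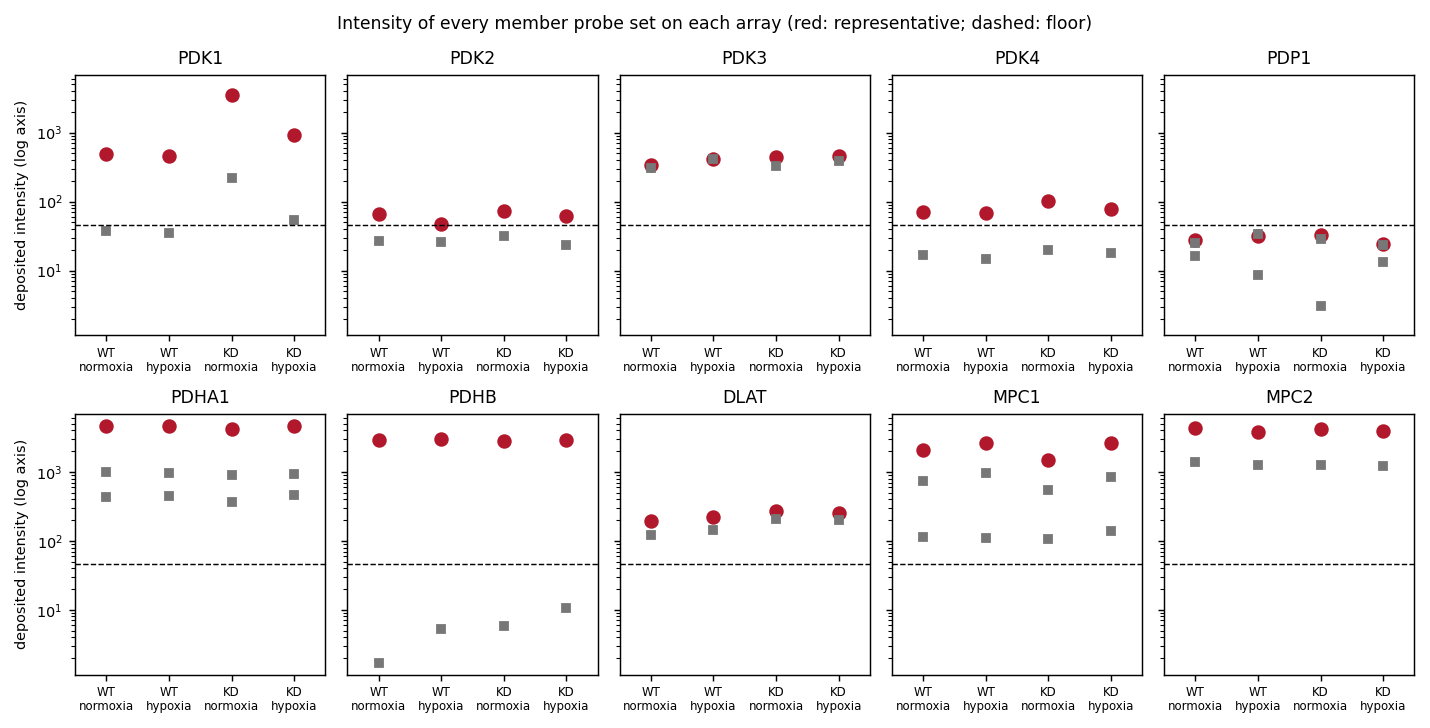
Deposited intensity (log axis) of all 23 probe sets on the 4 arrays, 1 panel per gene; red circles are the probe set with the highest mean, grey squares the others, and the dashed line is the floor at 46.3. PDK1 stands at 3568 in KD normoxia against 455 to 927 on the other arrays, while the red points of every other gene stay within 2-fold across the arrays.

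PDK1 was the member that differed most between arrays. Its probe set with the highest mean read 488 in WT normoxia, 455 in WT hypoxia, 3568 in KD normoxia and 927 in KD hypoxia. The array labelled KD normoxia was thus far above the other arrays, KD hypoxia came next, and both arrays labelled WT were low and close together. By intensity, KD normoxia was 7.31 times WT normoxia and 3.85 times KD hypoxia, and KD hypoxia was 2.04 times WT hypoxia.

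On the scale used for all differences, log2(intensity + 16), PDK1 was higher by 2.83 in KD than in WT under normoxia and higher by 1.00 under hypoxia. The second value lies at the 2-fold line, and with a pseudocount of 64 it was 0.93. Only 2 of the 23652 probe sets past the floor had a larger value in the normoxia pair, where PDK1 ranked 3 from the top. In the hypoxia pair it ranked 137. The labelled hypoxia minus normoxia difference was -0.10 in WT, smaller in size than the general spread of that comparison over probe sets (0.24, the median absolute deviation scaled to an SD), and -1.93 in KD, the 33rd lowest of all. The difference of the responses, WT minus KD, was 1.83.

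These PDK1 values take another meaning if the labels KD normoxia and WT hypoxia were exchanged. By arithmetic, 2.83 would then be the hypoxia minus normoxia difference in WT and 1.00 that in KD, while -0.10 would be KD minus WT under normoxia and -1.93 that under hypoxia. The difference of the responses would keep its value of 1.83. The values of every other probe set would trade places in the same way, HIF1A included.

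A second PDK1 probe set was also highest in KD normoxia and next in KD hypoxia. It read 37.0 in WT normoxia, 34.7 in WT hypoxia, 218 in KD normoxia and 53.6 in KD hypoxia. Both WT values lie below the floor, so the sizes of its KD minus WT differences (2.14 and 0.46) are not measured. Set against the floor itself, its KD normoxia value was at least 3.75-fold higher. Its hypoxia minus normoxia difference in KD, -1.75, rests on arrays that are both above the floor. Across the 4 arrays, the centred log2 values of the pair of PDK1 probe sets differed by a root mean square of 0.31. The SD of the main PDK1 profile itself was 1.18. The 0.31 includes the WT values below the floor, and the second probe set passed the floor only through its KD arrays. This likeness is therefore no support for the main profile.

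The other kinases differed far less. PDK2 read 66.7 in WT normoxia, 47.2 in WT hypoxia, 72.2 in KD normoxia and 61.7 in KD hypoxia, all just above the floor, and its largest difference was -0.39, for labelled hypoxia in WT. The second PDK2 probe set was below the floor on every array, between 23.5 and 31.9. PDK2 is the widely expressed kinase of the family.

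PDK3 read 344 in WT normoxia, 413 in WT hypoxia, 437 in KD normoxia and 452 in KD hypoxia, so WT normoxia was the lowest array. Its second probe set, at 304, 415, 323 and 389 in that order of arrays, was also lowest in WT normoxia. Both PDK3 probe sets were higher in labelled hypoxia than in normoxia within WT, by 0.25 and 0.43, and within KD, by 0.05 and 0.26. They disagreed in sign for KD minus WT under hypoxia, 0.12 and -0.09.

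PDK4 read 70.9 in WT normoxia, 69.1 in WT hypoxia, 101 in KD normoxia and 78.8 in KD hypoxia. Its arrays stood in the same order from high to low as those of PDK1, at a much smaller size. The differences were 0.43 for KD minus WT under normoxia and -0.31 for labelled hypoxia in KD. Its WT arrays were nearly level (-0.03), and how many of all probe sets have that order was not counted. The second PDK4 probe set, at 14.8 to 20.1, was below the floor on every array, so its order is not measured.

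PDP1, the phosphatase that counters the kinases, gave no measured level. Its 3 probe sets read 24.2 to 32.7, 23.6 to 34.2 and 3.01 to 16.2, all below the floor on every array, so no difference is given for it. This says nothing about whether the phosphatase is present in these cells.

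By main probe set, the subunits of the first enzyme were the steadiest members. The log2 range over the arrays was 0.17 for PDHA1, just below the 0.19 of MPC2. The dimmest PDHA1 probe set had a wider range, 0.33. PDHB, its beta subunit, read 2923 in WT normoxia, 2966 in WT hypoxia, 2802 in KD normoxia and 2929 in KD hypoxia. The range over the 4 arrays was 0.08 on the log2 scale, and 1.97% of all probe sets past the floor had a smaller one. A second PDHB probe set stayed at 1.71 to 10.7 and was below the floor on all 4 arrays.

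PDHA1, the alpha subunit that the kinases phosphorylate, read 4605 in WT normoxia, 4689 in WT hypoxia, 4154 in KD normoxia and 4593 in KD hypoxia. All 3 PDHA1 probe sets were lowest in KD normoxia, the array where PDK1 was highest, with KD minus WT differences there of -0.15, -0.17 and -0.22. The second PDHA1 probe set was at 998, 968, 889 and 946 on those arrays, and the dimmest was at 428, 454, 366 and 464. These differences lie within the general spread of that comparison over probe sets, 0.27.

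DLAT, the acetyltransferase core of the complex, was higher on both arrays labelled KD. Its main probe set read 197 in WT normoxia, 225 in WT hypoxia, 273 in KD normoxia and 255 in KD hypoxia. The second was at 123, 146, 206 and 203 on those arrays. In both probe sets the KD arrays were above the WT arrays, and how many of all probe sets have that order was not counted. KD minus WT was 0.44 and 0.68 under normoxia and 0.17 and 0.44 under hypoxia.

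MPC1 differed in the opposite sense to PDK1 on the array labelled KD normoxia. The main MPC1 probe set read 2069 in WT normoxia, 2663 in WT hypoxia, 1468 in KD normoxia and 2608 in KD hypoxia, so both hypoxia arrays were above both normoxia arrays and KD normoxia was the lowest. The second MPC1 probe set read 744, 973, 548 and 841 in that order and showed the same. How many of all probe sets separate by oxygen label in this way was not counted. Labelled hypoxia minus normoxia was 0.36 and 0.38 in WT and 0.82 and 0.60 in KD for these probe sets. A dimmer MPC1 probe set read 113, 112, 105 and 140, so that its WT arrays were nearly level, and its differences were -0.02 in WT and 0.37 in KD.

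MPC2, the partner subunit, did not share this pattern. It read 4344 in WT normoxia, 3797 in WT hypoxia, 4149 in KD normoxia and 3928 in KD hypoxia. Normoxia was slightly above hypoxia, by 0.19 in WT and by 0.08 in KD. Its second probe set read 1398, 1252, 1247 and 1212, with WT normoxia the highest.

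**Figure D2:**
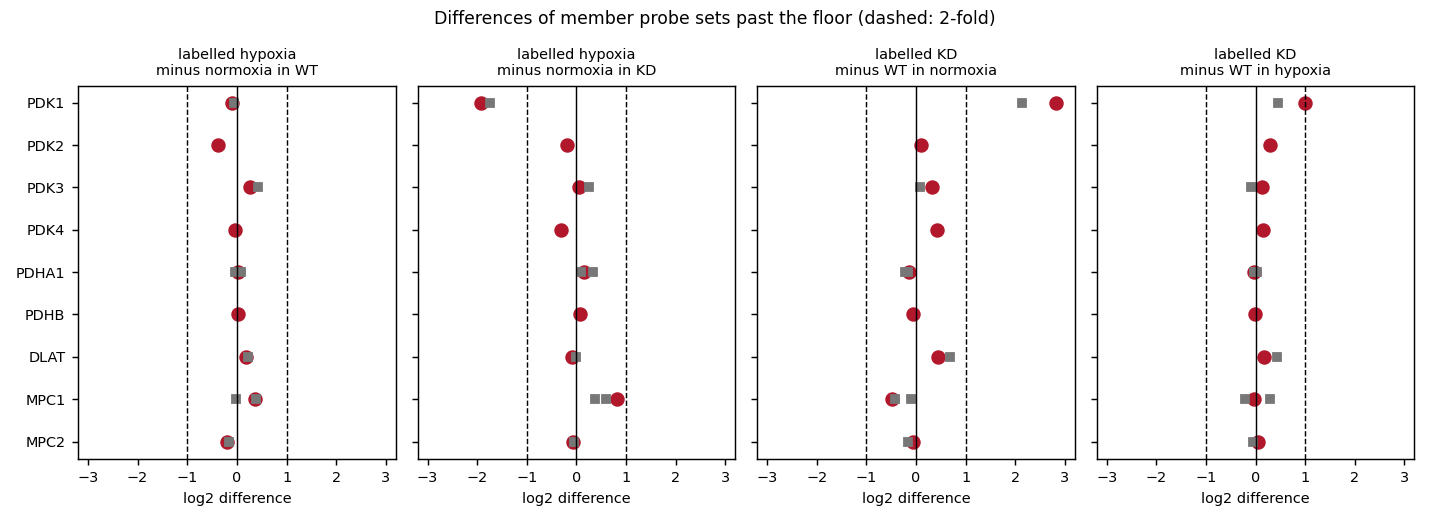
Log2 differences (x axis) of the 17 member probe sets past the floor in the 4 comparisons of a pair of arrays; red circles are the probe set with the highest mean of each gene, grey squares the others, and dashed lines mark 2-fold. PDK1 lies at 2.83 and 1.00 in the KD minus WT panels and at -1.93 for labelled hypoxia in KD, and every other gene lies inside the 2-fold lines.

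Counted over the 17 member probe sets past the floor, 0 differed at least 2-fold for labelled hypoxia in WT, where 1.35% of all probe sets did. For labelled hypoxia in KD, 2 were at least 2-fold lower (0.977% of all probe sets). For KD minus WT under normoxia 2 were at least 2-fold higher (0.926% of all), and under hypoxia 1 was (0.579% of all). For the difference of the responses, 2 were at least 2-fold higher (0.922% of all). In each case these were PDK1 probe sets. The second PDK1 probe set passed the floor only through its KD arrays, where it is high, so its part in these counts is no support. Over the 16 member probe sets at or above the floor on all 4 arrays the counts were 0, 1, 1, 1 and 1 in that order. Each array enters 2 of the 4 comparisons of a pair, so their values for PDK1 are not separate measurements.

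Without PDK1, the other 8 genes past the floor had a median difference of 0.02 for labelled hypoxia in WT, -0.02 in KD, 0.02 for KD minus WT under normoxia and 0.09 under hypoxia. Over all 9834 genes past the floor the medians were 0.01, 0.02, -0.01 and -0.01. By these medians the members did not move as a block, and the values past 2-fold belong to 1 gene. Smaller differences were present. For KD minus WT under normoxia, PDK3, PDK4 and DLAT (higher) and MPC1 (lower) also exceeded the general spread of 0.27, and 4 of 9 genes lay within it. MPC1 differed by 0.82 for labelled hypoxia in KD, larger in size than 96.8% of probe sets past the floor.

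**Figure D3:**
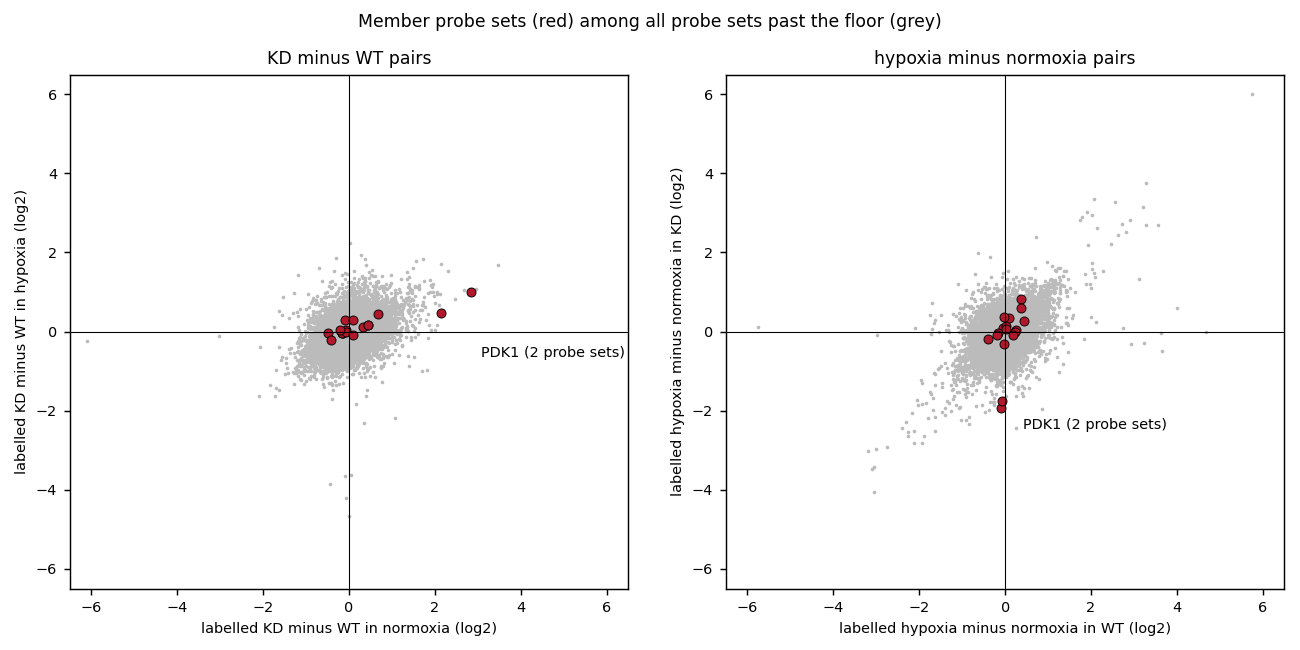
Log2 differences of all 23652 probe sets past the floor (grey) and of the 17 member probe sets (red), KD minus WT under normoxia against hypoxia on the left and labelled hypoxia minus normoxia in WT against KD on the right. The PDK1 probe sets lie towards the right of the grey cloud in the left panel. They lie low in the right panel, near 0 on the WT axis, and the other members lie inside the grey cloud.

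The 5 named genes whose log2 values, centred on their mean over the 4 arrays, lay nearest to those of PDK1 by root mean square difference were ALDOC, CA14, ADM, BNIP3L and CD38, out of 9531 candidates. ALDOC, a glycolytic aldolase, was nearest at 0.27 and read 453 in WT normoxia, 394 in WT hypoxia, 2031 in KD normoxia and 773 in KD hypoxia. CA14, a carbonic anhydrase, followed at 0.33 and ADM, a vasodilator peptide, at 0.40. BNIP3L, a mitophagy receptor, lay at 0.42 and CD38, an NAD-consuming ectoenzyme, at 0.46. All 5 were highest in KD normoxia and second in KD hypoxia, which their choice by likeness to PDK1 made likely in advance. In the WT pair ADM was higher in labelled hypoxia by 0.72, against -0.10 for PDK1. CA14 (-0.78) and BNIP3L (-0.74) were lower there, while ALDOC (-0.19) and CD38 (-0.31) lay nearer to PDK1. With 4 arrays such a likeness is a description only.

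**Figure D4:**
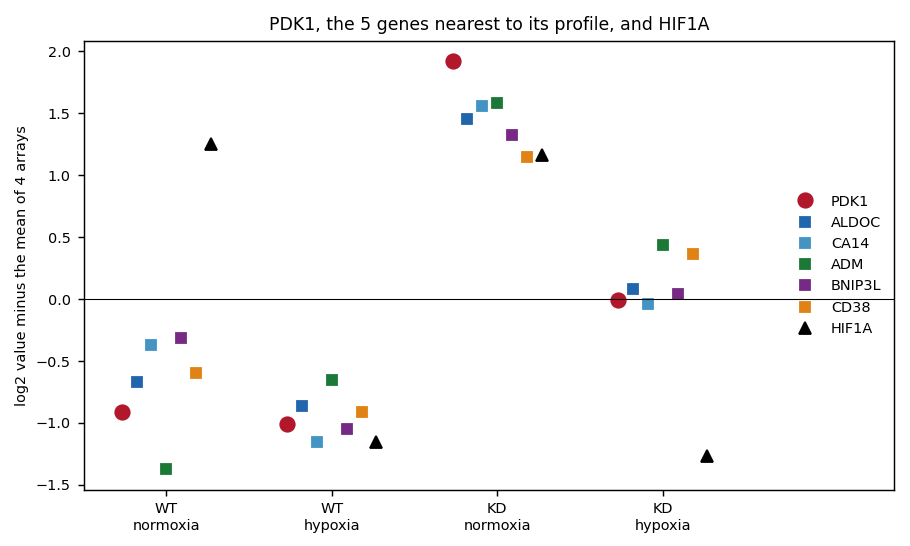
Log2 value minus the mean of the 4 arrays (y axis) for PDK1 (red circles), the 5 genes nearest to its profile (squares) and HIF1A (black triangles) on each array. PDK1 and its neighbours peak in KD normoxia, while HIF1A is high on both normoxia arrays and low on both hypoxia arrays.

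Related genes were read from 5 lists. Of all 9834 genes past the floor, 115 were at least 2-fold apart for labelled hypoxia in WT and 153 in KD. For KD minus WT these were 116 under normoxia and 86 under hypoxia. A count of 0 in a short list is near those shares, here and in the lists below. In the rest of the complex and its cofactor supply, 6 of 9 listed genes were measured and 4 passed the floor, and 0 differed 2-fold in any pair. PDHX, which docks the shared E3 enzyme, read 602 in WT normoxia, 668 in WT hypoxia, 630 in KD normoxia and 638 in KD hypoxia. For KD minus WT under normoxia the highest of the 4 was LIPT2, a lipoyl transferase, at 0.44 and the lowest LIAS, which makes lipoate, at -0.24. The other phosphatase gene PDP2 and the phosphatase regulator PDPR stayed below the floor on every array.

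Among other fates of pyruvate, 9 of 14 listed genes passed the floor, and 0 reached 2-fold on the log2(intensity + 16) scale. Over all 9834 genes past the floor, 4755 were higher and 5078 lower for KD minus WT under normoxia. In this list 6 were higher and 3 lower, with a median of 0.25. The highest was SLC16A3, a lactate exporter, at 0.93, with 64.5 in WT normoxia, 42.5 in WT hypoxia, 137 in KD normoxia and 63.1 in KD hypoxia. By intensity, KD normoxia was 2.13 times WT normoxia and 2.18 times KD hypoxia for SLC16A3, and its WT hypoxia value lies below the floor. The lowest was PCK2, mitochondrial phosphoenolpyruvate carboxykinase, at -0.42. For labelled hypoxia in KD 8 were lower and 1 higher (median -0.19), with SLC16A3 lowest at -0.95 and GPT, an alanine aminotransferase, highest at 0.25. Over all genes past the floor 4672 were lower and 5159 higher, and whether this list differs from them was not tested.

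The tricarboxylic acid cycle genes lay close to 0. All 14 measured of 16 listed passed the floor, and 0 differed 2-fold. For the directions that follow, the counts over all genes are those given with the list before. For KD minus WT under normoxia 5 were higher and 9 lower (median -0.08), from IDH3B at -0.26 to SUCLG2 at 0.22. For labelled hypoxia in KD 9 were higher and 5 lower (median 0.04), from IDH3G at -0.31 to CS, citrate synthase, at 0.19. Isocitrate dehydrogenase and succinyl-CoA ligase, to which IDH3B, IDH3G and SUCLG2 belong, are enzymes of the cycle itself.

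The branched-chain 2-oxo acid dehydrogenase complex is built and regulated like pyruvate dehydrogenase, and its kinase BCKDK is a relative of the PDK family. All 5 listed genes passed the floor. BCKDK read 296 in WT normoxia, 356 in WT hypoxia, 312 in KD normoxia and 313 in KD hypoxia, so it did not share the KD normoxia peak of PDK1. DBT, the counterpart of DLAT, was lowest in KD normoxia at 141 against 222, 281 and 228 on the WT normoxia, WT hypoxia and KD hypoxia arrays. For KD minus WT under normoxia this DBT difference, -0.60, was the lowest of the list, and BCKDHB was highest at 0.10.

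Of 12 genes known as regulators of PDK transcription, 9 passed the floor and HIF1A alone reached 2-fold in a pair of arrays, at -2.41 for labelled hypoxia in WT and -2.43 in KD. For KD minus WT under normoxia the list ran from PPARGC1B at -0.61 to NR3C1, the glucocorticoid receptor, at 0.42. PPARGC1B was below the floor on both KD arrays. EPAS1, which encodes the HIF-2 alpha subunit, read 54.2 in WT normoxia, 39.2 in WT hypoxia, 33.5 in KD normoxia and 62.6 in KD hypoxia, so 2 of its values were below the floor. ARNT, the partner subunit of both factors, read 83.2, 86.5, 107 and 82.8 in that order.

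**Figure D5:**
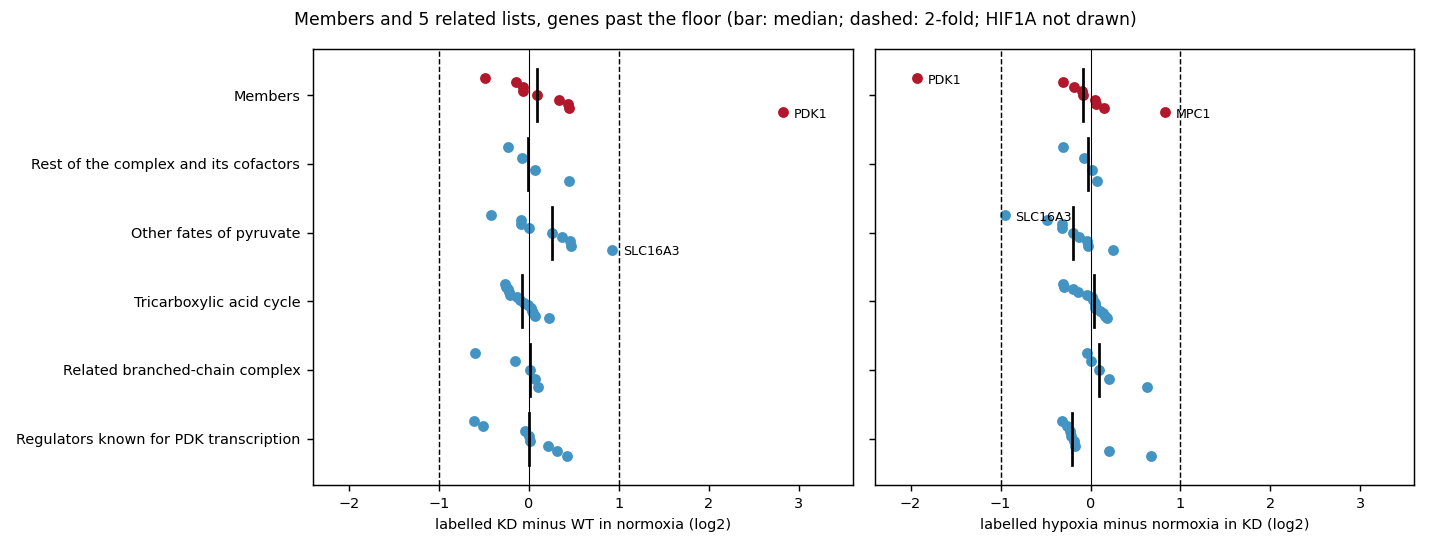
Log2 difference of each gene past the floor (x axis) in the members (red) and 5 related lists (blue), KD minus WT under normoxia on the left and labelled hypoxia minus normoxia in KD on the right; black bars are list medians, dashed lines mark 2-fold, and HIF1A is not drawn. PDK1 at 2.83 and -1.93 is the one point beyond 2-fold.

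The 4 arrays allow 1 test, an additive model of genotype and oxygen label fitted with limma to all 23652 probe sets past the floor, two-sided, with Benjamini-Hochberg adjustment at 0.05. In its genotype term PDK1 rose by 1.91 (SE 0.26, adjusted p = 0.000348), an average of 2.83 under normoxia and 1.00 under hypoxia. The residual of the model is the difference of the responses, which was 1.83 for PDK1. The second PDK1 probe set was also called, but it passed the floor only through its KD arrays, so no size or p is given for it. The dimmer DLAT probe set rose by 0.56 (SE 0.13, adjusted p = 0.014), while the main one, at 0.30, did not pass (adjusted p = 0.143). Over the 16 member probe sets at or above the floor on all 4 arrays 2 were called, where 9.1% of all probe sets past the floor were. Both DLAT probe sets had the same sign in both pairs, but they read the same arrays and are not separate support.

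In the hypoxia term of the limma fit MPC1 rose by 0.59 (SE 0.10, adjusted p = 0.00097) in its main probe set and by 0.49 (SE 0.10, adjusted p = 0.0058) in the second. The dimmest MPC1 probe set, at 0.18, did not pass (adjusted p = 0.529). PDK1 fell by 1.01 (SE 0.26, adjusted p = 0.0199), an average of -0.10 in WT and -1.93 in KD, and this call was lost (adjusted p = 0.0533) with the floor at the 75th percentile. These are 3 of the 16 member probe sets, beside 10.3% of all probe sets. With the label exchange described above, the genotype and hypoxia terms would swap their values.

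The model has 1 residual degree of freedom and borrows the rest of its variance from the other probe sets (13.8 prior degrees of freedom), so its p-values do not measure the spread between cultures. When the prior had no intensity trend, and likewise when no floor was set, 0 member probe sets were called in either term. Without the trend, 3 of 17 in the hypoxia term and 4 in the genotype term had an unadjusted p under 0.05. The adjusted p of PDK1 in the genotype term was then 0.186 and that of MPC1 in the hypoxia term 0.194.

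Outside the members, a few list genes passed the limma test, and they are named because of that result. Among them SLC16A3 has a WT hypoxia value below the floor, which enters its sizes in both terms. In the genotype term LDHA rose by 0.36 (adjusted p = 0.000428), SLC16A3 by 0.68 (adjusted p = 0.034), LIPT2 by 0.44 (adjusted p = 0.0188) and NR3C1 by 0.44 (adjusted p = 0.0307), and DBT fell by 0.44 (adjusted p = 0.0393). LDHA, which turns pyruvate into lactate, read 10946 in WT normoxia, 10927 in WT hypoxia, 15046 in KD normoxia and 13146 in KD hypoxia. These values gave the LDHA call, so their order of KD above WT adds no support to it. In the hypoxia term DBT rose by 0.48 (adjusted p = 0.0245), while SLC16A3 fell by 0.71 (adjusted p = 0.0253), IDH3G by 0.31 (adjusted p = 0.038), FOXO1 by 0.39 (adjusted p = 0.0487) and HIF1A by 2.42 (adjusted p = 1.08e-10). By list, the genotype term called 1 of 4 genes of the rest of the complex, 2 of 9 in other fates of pyruvate, 0 of 14 in the cycle, 1 of 5 in the branched-chain complex and 1 of 9 regulators. The hypoxia term called 0, 1, 1, 1 and 2 in that order. Over all probe sets these shares were 9.1% and 10.3%. Of the 41 list genes past the floor, 0 were called in the genotype term and HIF1A alone in the hypoxia term when the trend or the floor was left out.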

How the data were processed

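Expression was measured on 4 Affymetrix arrays, 1 per group, with groups taken from the sample titles. The authors deposited 1 linear intensity per probe set and array; the sources used here do not give the software, background correction or scaling behind these values, and the arrays were used as deposited. Median intensities ran from 45.6 to 47.1 per array. Values were turned to log2(intensity + 16), which understates changes at low intensity. In the platform annotation 29254 of 42924 probe sets had 1 gene symbol, 439 several and 13231 none. The symbols gave 15115 genes, and the probe set with the highest mean stood for each. Of the 23 member probe sets, 18 matched a RefSeq gene table (German Shepherd assembly) by gene ID and 5 by symbol alone; no coordinates were used.

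Probe sets were left out unless at least 1 array reached the floor, the median log2 value (5.96). A pair of arrays gives values and counts past 2-fold, with no test. The additive model was fitted with limma 3.58.1 in R 4.3.3 (lmFit, eBayes with an intensity trend) after a check on simulated data; the tables and plots were made with Python 3.11.15. Named genes were all members, HIF1A, list members past 2-fold or highest or lowest in a described pair, and the 5 profiles nearest to PDK1, with placeholder locus names left out. PDHX, PDP2, PDPR, BCKDK, EPAS1 and ARNT, and the list genes that passed limma, fall outside this rule and were chosen after their values were seen. The members and lists were chosen with earlier results of these data known. The alternatives were quantile scaling, median centring, cyclic loess, pseudocounts of 1 and 64, no floor, a floor at the 75th percentile, the median over PDK1 probe sets and a prior without trend.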

Additional observations from a re-analysis of the deposited data

Results flagged for a closer look

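DLAT was higher in labelled hypoxia than in normoxia within WT (0.18) and lower within KD (-0.10), so that the responses differed by 0.28. MPC2 had opposite signs of the labelled KD minus WT difference, -0.07 under normoxia and 0.05 under hypoxia, which differ by -0.11. Neither difference between groups was tested, since each group has 1 array. The spread over all probe sets of the difference of the responses was 0.26, just under the DLAT value and above the size of the MPC2 value.

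One further probe set is annotated to PDK1 together with the locus LOC478801 and was not counted as a member, though it was among all probe sets fitted. It read 51.5 in WT normoxia, 36.0 in WT hypoxia, 412 in KD normoxia and 91.6 in KD hypoxia, and KD minus WT under normoxia was 2.67 on the log2 scale.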

How the results depend on the processing

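Of 113 recomputed values, 93 kept their direction and their side of the threshold or stayed within the allowed margin, 15 moved, 5 lost significance and 0 reversed. The median over both PDK1 probe sets was 2.48 for KD minus WT under normoxia and 0.73 under hypoxia. A pseudocount of 64 left 0 member probe sets past 2-fold for KD minus WT under hypoxia. The floor at the 75th percentile left 1 member probe set past 2-fold for labelled hypoxia in KD, for KD minus WT under normoxia and for the difference of the responses, and 1 called in the genotype term, with fewer probe sets tested. In the limma fit without trend 25 probe sets were called for hypoxia and 0 for genotype (4435 with an unadjusted p under 0.05); without the floor these were 125 and 0 (5542 unadjusted). Members called in either term were 0 under both settings, and the cause was not tested. The PDK1 hypoxia term stayed at -1.01 with adjusted p = 0.336 without trend, 0.427 without the floor and 0.0533 with the higher floor. Its genotype term stayed at 1.91 with adjusted p = 0.186 without trend and 0.245 without the floor. Adjusted p-values of the MPC1 hypoxia term ran from 1.05e-05 (quantile scaling) to 0.194 over the alternatives. KD minus WT under hypoxia, close to 0 throughout, turned sign with median centring for MPC1 (0.0019), PDHA1 (0.0016) and PDHB (0.013), and with quantile scaling for PDHB (0.0052), whose WT response also turned (-0.016). No paired analysis was possible because each group has 1 array. Signal over background limits PDP1, PDK2 and PDK4, which lie near or below the floor.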
